A study of Mus musculus with 18 samples.

Results

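Osteoclast cultures of bone marrow-derived macrophages (BMDMs) were compared between libraries labelled Zmat1 knockout (KO) and libraries labelled wild type (WT) after 3 days of RANKL. The comparison took the 3 KO and the 3 WT libraries whose labels name day 3, which are 6 of the 18 libraries of the study. BMDMs are macrophages grown from mouse bone marrow in M-CSF, and RANKL is the cytokine that turns such precursors into osteoclasts. The other 12 libraries hold the same pair of labels before RANKL and after 1 day. Marrow came from mice 4 to 8 weeks old, of a global Zmat1 knockout (Zmat1-/-) line for the KO label and of its wild-type littermates (Zmat1+/+) for the WT label. Both labels received RANKL for 3 days after M-CSF, for which the design text of the series gives 3 days and the methods of the study another length. The labels number the libraries 1 to 3 and do not say whether each came from a separate animal, so p-values describe the spread between these libraries, which may be technical.

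An osteoclast is a large cell with many nuclei that forms by fusion of macrophage precursors and dissolves bone. It seals off a patch of bone with a ring of actin, pumps acid onto the mineral with a vacuolar proton pump, and digests the matrix with cathepsin K and matrix metalloproteinases. RANK, the receptor of RANKL, and the ITAM-bearing adaptors drive the transcription factor Nfatc1, which switches on these genes, while genes of the resting macrophage are turned down. Marrow cultures can also carry other cells of the marrow, among them stromal cells that make collagen, endothelial cells of its vessels, and granulocytes.

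The gene named in the labels came first. Zmat1, a zinc finger protein gene of the X chromosome, had 95, 76 and 85 counts in KO libraries 1, 2 and 3 and 56, 80 and 39 counts in WT libraries 1, 2 and 3. Scaled to the effective size of each library (CPM, the unit of every level given here) these were 5.66, 4.65 and 4.82 against 2.89, 4.71 and 2.19. Transcripts of the gene were counted in all 3 libraries labelled KO, KO library 2 lay below WT library 2, and the difference on the log2 scale (log2FC) was 0.63 (SE 0.406, edgeR adjusted p = 0.616, and by exact permutation of the labels, 2-sided, p = 0.2, where 0.1 is the smallest that 3 against 3 can give). The counts did not follow the labels, and whether the counted reads fall outside a deleted part was not tested. Every direction below is therefore that of the libraries labelled KO relative to those labelled WT. For the knockout line the study itself reports genotyping by PCR of tail DNA and a qPCR check of Zmat1 in BMDMs of both genotypes. Trim46, the ubiquitin ligase gene the study placed under Zmat1, measured 6.08, 5.45 and 6.46 CPM against 2.63, 3.18 and 2.47 CPM (log2FC 1.12, SE 0.57, adjusted p = 0.507). Its locus lies on the chromosome 3 stretch read further below. The part of that stretch in its difference was not tested.

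The 6 libraries held 14144116 to 16548944 counts, and 16490 to 17139 genes had at least 1 count. Markers of osteoclasts were counted in these libraries. Acp5, the TRAP enzyme, ran from 2300 to 4573 CPM, Ctsk, cathepsin K, from 2124 to 5918 CPM, and 0 of 10 osteoclast markers was at 0. Macrophage markers were there too, with Lyz2, lysozyme, between 3413 and 13890 CPM. Osteoblast or stromal markers summed to 17600, 25800 and 26000 CPM in KO libraries 1, 2 and 3 and to 10000 to 13000 CPM in the WT libraries. In each KO library the stromal sum exceeded the osteoclast sum given below, and in each WT library it was the smaller. KO library 3 stood apart from the other 2 libraries of its label. Its counts differed from theirs by a chi-square per degree of freedom of 51.0 and 66.8, where KO libraries 1 and 2 differed by 21.6 and the WT pairs by 18.4 to 46.9, and the first principal component (46.8% of the variance) placed it at 60.4 against 21.6 and 13.8 for KO libraries 1 and 2 and -42.6 to -21.0 for the WT libraries. Summed over the osteoclast markers KO library 3 was the lowest of the 6 (8290 CPM, against 12200 and 17700 in KO libraries 1 and 2 and 16000 to 23400 in the WT libraries). It was the highest for macrophage markers (17600 CPM, against 6360 to 13200), neutrophil markers (1150 CPM, against 35.8 to 334) and endothelial markers (78.1 CPM, against 4.7 to 29). WT library 3 lay at the other end, with the highest osteoclast sum and the lowest macrophage sum. The part that this mixture of cells plays in the differences below was not tested, values without KO library 3 are given for many of the lists below, and in bulk RNA fewer cells of a type cannot be told apart from less RNA per cell.

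Over the 14241 genes tested, 20 passed an adjusted p under 0.05 (0.14%), 12 of them higher under the KO label (0.0843%) and 8 lower (0.0562%). A looser rule, an unadjusted p under 0.05 with a fold above 1.5 or below 0.66, here called the unadjusted threshold, was passed by 5.69% of the genes, 4.82% higher and 0.864% lower. The spread in this fit was estimated over all 18 libraries. When the 6 day 3 libraries were fitted alone, 158 genes passed the adjusted p (1.17% of 13491, with 136 or 1.01% higher and 22 or 0.163% lower), 17 of them among the 20, and 11.1% passed the unadjusted threshold (9.51% higher and 1.64% lower). With the DESeq2 Wald test 1.65% passed the adjusted p (1.26% higher and 0.393% lower). Of all tested genes, 29.2% had KO libraries that did not overlap the WT libraries (15.9% higher and 13.3% lower), and the 20 genes were all among these. The median log2 fold change of all genes was 0.02, with the interquartile range from -0.17 to 0.33. The plot of fold change against p shows the larger number of genes on the higher side.

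**Figure D1:**
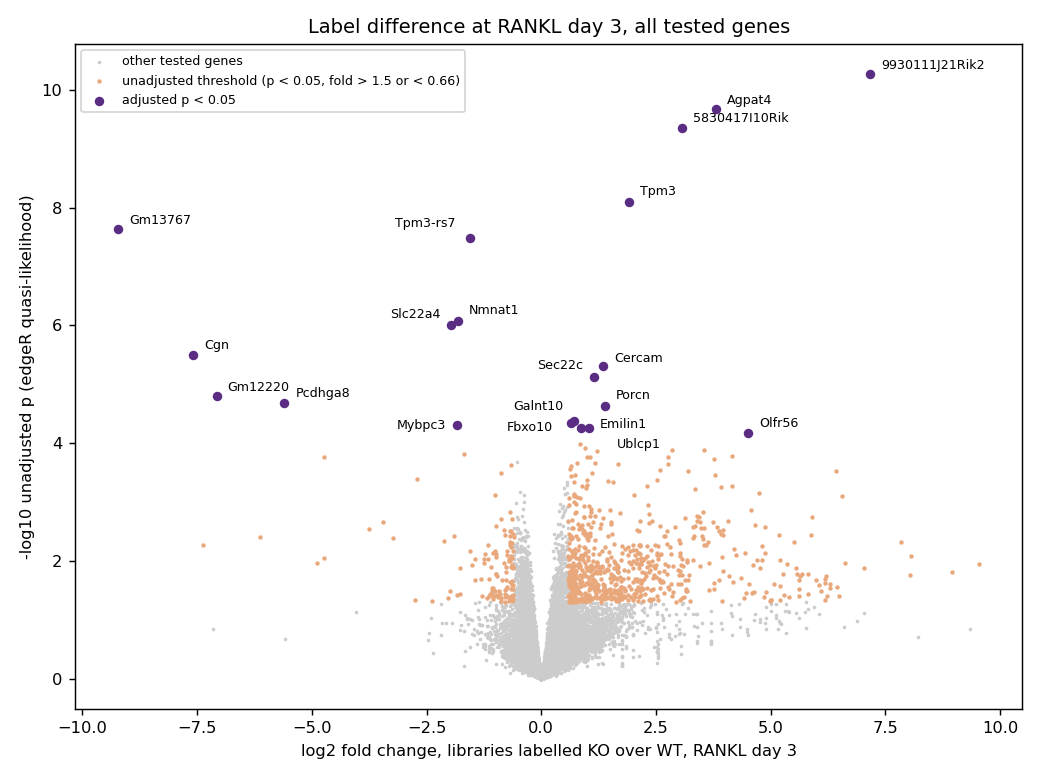
Log2 fold change of the libraries labelled KO over those labelled WT at RANKL day 3 (x axis) against -log10 of the unadjusted edgeR p (y axis) for the 14241 tested genes. Purple points are the 20 genes at an adjusted p under 0.05, with their symbols, and orange points pass the unadjusted threshold, 687 genes on the higher side and fewer on the lower, called genes included.

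Among the 20 called genes, 13 were called in the same comparison on day 0 and on day 1 as well, and 7 were called on day 3 alone. The 7 were Porcn, Cercam, Emilin1, Galnt10, Fbxo10, Mybpc3 and Pcdhga8. Porcn (ENSMUSG00000031169, chromosome X, 8193848 to 8206525, GRCm38 as in the table) encodes the enzyme that attaches the lipid that Wnt ligands need for secretion. It measured 13.3, 20.6 and 11.5 CPM in the libraries labelled KO and 6.45, 6.17 and 4.77 CPM in those labelled WT. All 3 KO libraries lay above the 3 WT libraries, with a log2 fold change of 1.38 (SE 0.228, adjusted p = 0.0239). Cercam (ENSMUSG00000039787, chromosome 2, 29869164 to 29882840), a gene of the collagen galactosyltransferase family, measured 38.6, 51.5 and 54.8 against 17.8, 24.5 and 14.5 CPM (log2FC 1.35, SE 0.193, adjusted p = 0.00687), again without overlap. Both were close to level on the other days, with log2 fold changes on day 0 of -0.24 for Porcn and -0.30 for Cercam, and on day 1 of 0.31 and 0.33. The day 3 difference exceeded that of day 0 at an unadjusted p of 2.2e-05 for Cercam and 0.000149 for Porcn, neither of which passed the adjustment over all genes.

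Emilin1 (ENSMUSG00000029163, chromosome 5, 30913402 to 30921277) encodes a glycoprotein of elastic fibres. Its level was 233, 265 and 281 CPM against 124, 147 and 108 CPM, which left a gap between the labels (log2FC 1.04, SE 0.186, adjusted p = 0.0418). Galnt10 (ENSMUSG00000020520, chromosome 11, 57645442 to 57787514), an enzyme that starts O-linked sugar chains in the Golgi, measured 88.2, 91.8 and 99.0 against 55.3, 64.1 and 50.8 CPM (log2FC 0.71, SE 0.124, adjusted p = 0.0401). Fbxo10 (ENSMUSG00000048232, chromosome 4, 45034247 to 45084604), a substrate adaptor of a ubiquitin ligase, measured 15.1, 16.2 and 17.8 against 9.86, 10.8 and 10.7 CPM (log2FC 0.65, adjusted p = 0.0413). The libraries of each label stayed close to each other in these 3 genes. On day 0 their log2 fold changes were -0.07, 0.01 and 0.03. Mybpc3 (ENSMUSG00000002100, chromosome 2, 91118144 to 91136516), a myosin-binding protein best known in heart muscle, was low and fell from 2.12, 2.53 and 3.25 CPM in the libraries labelled WT to 0.774, 0.734 and 0.68 CPM (log2FC -1.84, adjusted p = 0.0418). The calls of Emilin1, Galnt10, Fbxo10 and Mybpc3 were each lost in 8 or more of the alternative fits, that of Porcn in 7 and that of Cercam in 3. All 6 lost the call without WT library 1 and without WT library 3, where the log2FC of Cercam was 1.31 and 1.19 and that of Porcn 1.47 and 1.26.

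The other called genes differed before RANKL as well. Nmnat1 (ENSMUSG00000028992, chromosome 4, 149467572 to 149485202), which makes NAD in the nucleus, measured 11.9, 10.9 and 9.35 CPM in the libraries labelled KO and 37.2, 36.7 and 39.0 CPM in those labelled WT. The 3 libraries of a label were nearly equal and the labels lay far apart (log2FC -1.81, SE 0.223, adjusted p = 0.00174), as on day 0 (-2.58) and day 1 (-2.31). Sec22c (ENSMUSG00000061536, chromosome 9, 121680047 to 121705490), a protein of vesicle traffic between endoplasmic reticulum and Golgi, measured 12.8, 12.1 and 13.8 against 5.52, 4.53 and 7.41 CPM (log2FC 1.15, SE 0.17, adjusted p = 0.0096). Ublcp1 (ENSMUSG00000041231, chromosome 11, 44454571 to 44470498), a phosphatase that acts on the proteasome, measured 22.9, 23.9 and 19.03 against 11.97, 10.8 and 13.5 CPM (log2FC 0.86, adjusted p = 0.0418). These log2 fold changes were 1.36 and 1.40 on day 0 and 1.18 and 0.99 on day 1. The remaining 10 called genes were 9930111J21Rik2, Agpat4, 5830417I10Rik, Olfr56 and Tpm3, which rose, and Gm13767, Cgn, Gm12220, Slc22a4 and Tpm3-rs7, which fell. The calls of 6 genes held in every alternative fit: 5830417I10Rik, 9930111J21Rik2, Agpat4, Nmnat1, Tpm3 and Tpm3-rs7.

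Tpm3, a tropomyosin that lines actin filaments, and Tpm3-rs7, a copy of it on another chromosome, moved in opposite directions, and their sequences show how alike they are. The coding sequences of Tpm3-201 and Tpm3-rs7-201 are 744 bases each and differ at 3 bases (99.6% equal), and 518 of 645 windows of 100 bases (80.3%) hold no difference at all. The 120 coding bases that hold all 3 differences (coding bases 8 to 127, GRCm38, plus strand, chr3:90079739-90079858 for Tpm3 and chr14:113314683-113314802 for the copy) are given with the differing bases in capitals.
Tpm3: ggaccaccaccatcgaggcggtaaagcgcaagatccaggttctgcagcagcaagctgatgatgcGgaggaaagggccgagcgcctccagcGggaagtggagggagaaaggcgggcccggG
Tpm3-rs7: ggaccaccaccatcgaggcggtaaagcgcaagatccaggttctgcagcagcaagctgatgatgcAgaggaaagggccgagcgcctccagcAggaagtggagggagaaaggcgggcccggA
Read assignment between the 2 loci is therefore uncertain. Tpm3-rs7 measured 104, 101 and 115 CPM in the libraries labelled KO and 323, 317 and 296 CPM in those labelled WT (log2FC -1.55, SE 0.148, adjusted p = 7.87e-05), while Tpm3 rose (log2FC 1.91). The sum of both loci was 394, 373 and 447 CPM against 400.0, 398 and 376 CPM, so that the labels overlapped in the sum. The interferon-induced GTPase genes Tgtp1 and Tgtp2, neighbours on chromosome 11 with similar sequences, showed the same kind of pair without passing the adjusted p. Tgtp1 measured 0.894, 0.612 and 0.623 CPM against 4.13, 5.70 and 4.26 CPM (log2FC -2.71, adjusted p = 0.118), and Tgtp2 measured 23.5, 22.2 and 15.6 CPM against 5.01, 4.88 and 3.82 CPM (log2FC 2.16, adjusted p = 0.235). Here the sum did not cancel, with 24.4, 22.8 and 16.3 CPM against 9.14, 10.6 and 8.08 CPM.

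Below the adjusted p, the 12 higher genes with the smallest p at a level of at least 5 CPM and without overlap included Fam114a1, Copz2, Gdf3, Clec2i, Cers4, Igfbp5, Ppapdc1b, C1qtnf3, B3gnt9, Dnajb4 and Ctla2a, with adjusted p from 0.0706 to 0.0877. Gdf3, a ligand of the TGF-beta family, measured 39.2, 26.0 and 30.4 against 3.46, 2.35 and 2.36 CPM (log2FC 3.54, SE 0.689, adjusted p = 0.0768). Igfbp5, a binding protein of insulin-like growth factors that bone cells secrete, measured 155, 204 and 109 against 18.3, 23.8 and 27.04 CPM (log2FC 2.76, SE 0.553, adjusted p = 0.0805). C1qtnf3, a secreted relative of complement C1q, measured 5.54, 10.8 and 6.17 against 0.774, 0.412 and 0.449 CPM (log2FC 3.76, adjusted p = 0.0835). In the fit of the 6 day 3 libraries alone Gdf3 (adjusted p = 0.00308), Igfbp5 (0.0142) and C1qtnf3 (0.0207) passed the adjusted p. On the lower side the same rule gave Lyrm7, Celf3, Btk, Slc35d1, Gm4353, Sntb2, Zc3h3, Aim1, Ciapin1, Xpr1, Nfkbid and Gm9581. Celf3, an RNA-binding splicing factor, measured 0.238, 0.245 and 0.34 against 8.10, 5.35 and 9.03 CPM (log2FC -4.73, adjusted p = 0.0805). Lyrm7, an assembly factor of respiratory complex III, measured 2.502, 3.12 and 1.93 against 9.14, 7.88 and 7.24 CPM (log2FC -1.68, adjusted p = 0.0805), and in the day 3 libraries alone both passed.

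Genes of the osteoclast program had lower levels in the libraries labelled KO as a group, but 0 of them passed the adjusted p. Of 12 genes for resorption enzymes and acid transport, 11 had a negative log2 fold change, the median was -0.46 where that of all genes was 0.02, and 0 passed the unadjusted threshold. Ctsk measured 3007, 4450 and 2124 against 3974, 4436 and 5918 CPM (log2FC -0.58, adjusted p = 0.651), and Mmp9, the gelatinase of osteoclasts, 4826, 7373 and 2908 against 6079, 7617 and 10710 CPM (-0.69, adjusted p = 0.722). In both genes KO library 2 lay within the WT range and KO library 3 was the lowest. Slc4a2, the anion exchanger that balances acid secretion, measured 321, 396 and 221 against 409, 378 and 536 CPM (-0.50), and Tcirg1, the pump subunit mutated in many cases of osteopetrosis, measured 829, 931 and 694 against 1057, 972 and 1144 CPM (-0.37, adjusted p = 0.467). Without KO library 3 the median of the 12 genes was -0.30.

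The subunits of the vacuolar proton pump went the same way. Of 18 tested subunits and accessory proteins 17 had a negative log2 fold change (median -0.32), 7 were lower without overlap against 13.3% of all genes, and 0 passed the unadjusted threshold, with 4 at an unadjusted p under 0.05. Atp6v1b2 and Atp6v1a, the B and A subunits of the ATP-splitting head, were the most abundant. Atp6v1b2 measured 972, 1157 and 701 against 1262, 1231 and 1612 CPM (-0.54, adjusted p = 0.483), and Atp6v1a 752, 856 and 606 against 1033, 945 and 1094 CPM (-0.47, adjusted p = 0.43). In both the 3 KO libraries lay below the 3 WT libraries. Without KO library 3 the median of the subunits was -0.27.

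Upstream of these genes, the RANK and ITAM signaling list (25 genes, median -0.22) had 2 members past the unadjusted threshold, both lower. Of all genes 0.864% passed it on the lower side. Btk, a kinase that relays ITAM signals to calcium, measured 64.9, 62.7 and 58.3 against 98.3, 85.6 and 109 CPM. The labels were well apart and KO library 3 sat with its own label (log2FC -0.66, SE 0.136, adjusted p = 0.0878, and -0.61 without KO library 3). Tnfrsf11a, which encodes RANK itself, measured 107, 125 and 59.5 against 153, 131 and 172 CPM (-0.64, adjusted p = 0.465, and -0.39 without KO library 3). Tnfsf11, the gene of RANKL, was chosen here after its values were seen and lay the other way, at 4.35, 6.30 and 4.14 against 1.19, 1.76 and 1.46 CPM (1.74, adjusted p = 0.6, and 0.0459 in the day 3 libraries alone). Among 22 osteoclast transcription factors (18 negative, median -0.37) Prdm1, a repressor of anti-osteoclast genes, alone passed the unadjusted threshold, at 75.8, 87.8 and 45.1 against 120, 88.3 and 130 CPM (-0.70, adjusted p = 0.45). KO library 2 and WT library 2 were nearly equal there.

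Of the remaining osteoclast lists, fusion genes (12) had a median of -0.24 and integrin, podosome and actin ring genes (26) one of -0.12. Itgav, the alpha chain of the vitronectin receptor, was the 1 member past the unadjusted threshold, at 166, 213 and 183 against 297, 257 and 321 CPM (-0.64, adjusted p = 0.389). Other osteoclast genes (14) had a median of -0.30 with 0 past the threshold. Coupling factors, by which osteoclasts signal to osteoblasts (14 genes), had a median of 0.41 (0.20 without KO library 3), and 0 of them passed. The plot of summed levels shows the resorption genes and proton pump subunits beside the lists of other cells.

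**Figure D2:**
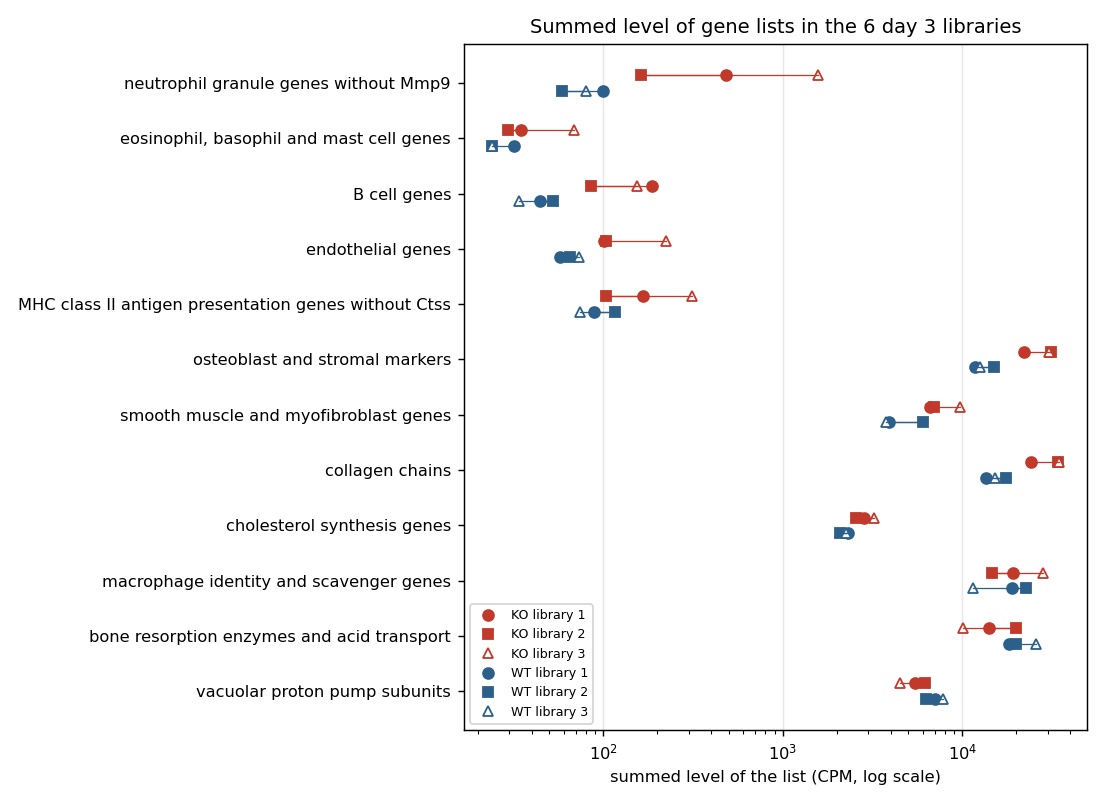
Summed level of each gene list in CPM (x axis, log scale) in each of the 6 day 3 libraries, red for KO and blue for WT, with the symbol giving the library number. Mmp9, an osteoclast gene, was left out of the neutrophil list and Ctss out of the MHC class II list, since each exceeded the rest of its list. The neutrophil sum was 485, 162 and 1570 CPM in KO libraries 1, 2 and 3 against 100, 59.2 and 80.1 CPM, and the resorption sum overlapped between the labels.

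Macrophage genes split between the shared program and single genes. The identity and scavenger list (26 genes, median 0.23, 0.03 without KO library 3 and -0.02 without WT library 3) had 2 members past the unadjusted threshold. Both were higher, where 4.82% of all genes were. Cd5l, a scavenger protein of tissue macrophages, measured 112, 65.6 and 358 against 15.95, 10.6 and 3.20 CPM, so that the lowest KO library was above the highest WT library (log2FC 4.17, SE 0.946, adjusted p = 0.129, and 3.16 without KO library 3). Cd163, the haptoglobin-hemoglobin receptor, measured 12.5, 10.1 and 10.9 against 7.07, 5.88 and 3.25 CPM (1.05, adjusted p = 0.465). Abundant genes of the list overlapped, with Lyz2 at 7257, 5730 and 13890 against 6923, 9043 and 3413 CPM (0.47). Macrophage transcription factors (20) had a median of 0.22 with 0 past the threshold, and Maf measured 298, 207 and 272 against 177, 239 and 136 CPM (0.49, adjusted p = 0.424).

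Genes that present antigen on MHC class II had a positive median. Of 14 tested genes 6 passed the unadjusted threshold, all higher, against 4.82% of all genes, and the median was 1.36 (0.81 without KO library 3, where 1 passed). The sum of the list without Ctss overlapped between the labels, at 167, 103 and 311 against 88.3, 116 and 74.3 CPM. H2-Ab1, the beta chain of I-A, measured 22.2, 12.2 and 39.99 against 4.65, 7.70 and 6.40 CPM (1.99, SE 0.629, adjusted p = 0.307), and H2-Eb1 10.7, 6.79 and 25.9 against 2.53, 4.12 and 3.03 CPM (2.17, adjusted p = 0.337). KO library 3 was the highest and KO library 2 the lowest of its label in both. H2-Aa measured 13.5, 3.92 and 27.9 against 1.39, 4.53 and 2.64 CPM, with KO library 2 inside the WT range.

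Complement genes (20) had a median of 0.50 (0.13 without KO library 3) with 2 past the unadjusted threshold, C2 (6.14, 8.503 and 5.55 against 2.12, 2.41 and 2.97 CPM) and C1ra (33.9, 28.0 and 22.7 against 13.3, 15.5 and 13.0 CPM), both without overlap. Over all genes 4.82% passed this threshold on the higher side and 0.864% on the lower. Pattern receptors (29, median 0.31) had 3 higher, and without KO library 3 the median was 0.02 and 0 passed. Chemokine genes (34, median 0.35, and 0.18 without KO library 3) had 3 higher and 1 lower. Ccl9, a chemokine that osteoclasts make in quantity, was the lower one, at 538, 588 and 352 against 770, 610 and 896 CPM (-0.62, adjusted p = 0.438), and the higher ones were Cxcr2, Ccr2 and Ackr3. Cytokine and activation genes (22, median 0.30) had 2 higher, Lcn2 and Chil3, both also neutrophil genes. The interferon response list (38 genes) had a median of -0.36 with 29 negative, and its 4 members past the unadjusted threshold were Oas2 and Tgtp1, lower, and Isg20 and Tgtp2, higher. Oas2, a sensor of double-stranded RNA, measured 46.9, 28.0 and 34.7 against 79.8, 67.0 and 71.4 CPM (-0.99, adjusted p = 0.365). Without KO library 1 the median of the interferon list was -0.69, and without KO library 3 it was -0.16.

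The highest list medians belonged to cells other than osteoclasts, as the plot of list medians shows. Neutrophil granule genes led it. Of 20 tested genes 17 passed the unadjusted threshold, all higher, against 4.82% of all genes, 13 did not overlap against 15.9%, and the median log2 fold change was 3.24, though 0 passed the adjusted p. Cd177, a surface protein of neutrophils, measured 11.9, 3.49 and 30.0 CPM in the libraries labelled KO and 1.75, 0.412 and 1.74 CPM in those labelled WT (3.52, SE 0.905, adjusted p = 0.207). S100a9, a subunit of calprotectin, measured 129, 30.8 and 425 against 26.0, 13.4 and 16.4 CPM (3.39, SE 0.887, adjusted p = 0.22). Ltf, the iron-binding lactoferrin of secondary granules, measured 57.8, 19.6 and 157 against 11.8, 6.53 and 8.53 CPM (3.12, SE 0.824, adjusted p = 0.222). In each of these genes KO library 3 was the highest, KO library 1 came next and KO library 2 lay closest to the WT libraries. Mmp8, the collagenase of neutrophils, overlapped by a small margin, at 14.7, 3.61 and 36.5 against 4.08, 3.41 and 2.75 CPM. Without KO library 3 the median of the list was 2.08 and 12 of the 20 genes passed the unadjusted threshold. The DESeq2 Wald test called 12 of the 20 at an adjusted p under 0.05.

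The promoters of these 4 genes are shown because 17 of 20 members of the list lay on the same side of the unadjusted threshold. Each is the 250 bases before the annotated start (RefSeq, GRCm38.p6), in the direction of transcription. Capitals mark matches on either strand to TTGCNNAA, the letters of a C/EBP-type motif, or to AGGAAGT, those of a PU.1-type motif, 2 factor families of myeloid cells. The windows are chr7:24760312-24760561 (minus strand) for Cd177, chr3:90695722-90695971 (minus strand) for S100a9, chr9:111019042-111019291 (plus strand) for Ltf and chr9:7558179-7558428 (plus strand) for Mmp8.
Cd177: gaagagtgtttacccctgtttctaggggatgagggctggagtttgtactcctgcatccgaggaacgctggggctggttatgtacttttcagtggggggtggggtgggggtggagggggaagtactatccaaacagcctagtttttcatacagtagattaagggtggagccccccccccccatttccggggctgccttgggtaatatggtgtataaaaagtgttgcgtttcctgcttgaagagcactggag
S100a9: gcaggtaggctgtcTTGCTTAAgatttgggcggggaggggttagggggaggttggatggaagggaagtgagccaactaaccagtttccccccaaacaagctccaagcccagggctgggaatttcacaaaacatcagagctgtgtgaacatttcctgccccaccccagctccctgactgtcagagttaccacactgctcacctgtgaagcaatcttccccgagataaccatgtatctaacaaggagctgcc
Ltf: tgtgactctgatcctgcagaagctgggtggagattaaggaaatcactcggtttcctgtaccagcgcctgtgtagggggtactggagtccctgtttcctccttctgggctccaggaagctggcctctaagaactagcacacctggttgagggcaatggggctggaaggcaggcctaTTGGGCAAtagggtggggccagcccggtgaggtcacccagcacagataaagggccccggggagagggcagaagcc
Mmp8: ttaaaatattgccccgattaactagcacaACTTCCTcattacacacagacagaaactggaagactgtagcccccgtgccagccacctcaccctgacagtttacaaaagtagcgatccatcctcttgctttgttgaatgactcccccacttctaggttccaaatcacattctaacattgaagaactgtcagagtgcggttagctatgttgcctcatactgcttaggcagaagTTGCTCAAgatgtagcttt
The C/EBP-type letters were found in 8 of the 18 neutrophil promoters in the table (44.4%) and in 9.56% of all 32851 windows of this length, and the PU.1-type letters in 9 of the 18 (50.0%) and in 7.69% of all windows. Among tested genes with a window the shares were 9.13% and 9.18%. S100a9, Ltf and Mmp8 held the first, Mmp8 also the second, and Cd177 neither. The letters are a description of these windows and no binding was measured.

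Eosinophil, basophil and mast cell genes (15 tested, median 3.01) and B cell genes (17 tested, median 2.79) were near the limit of counting, with 8 and 10 members at 3 counts or fewer in every library of 1 or both labels. With those members set to the bound that 3 counts give, or left out where both labels were that low, the medians were 1.43 and 1.63. Of the first list 4 passed the unadjusted threshold, where 4.82% of all genes were higher. Hdc, which makes histamine, measured 2.32, 0.795 and 4.36 against 0.361, 0.176 and 0.112 CPM (3.46, adjusted p = 0.235), and Kit, the receptor of stem cell factor, 3.81, 2.94 and 7.76 against 0.671, 1.24 and 2.24 CPM (1.80, adjusted p = 0.419). Without KO library 3 the list median was 1.28 and 1 passed. Of the B cell list 8 passed (6 without KO library 3 and 5 without WT library 3). Cd79b, a chain of the B cell receptor, measured 5.48, 3.49 and 5.04 against 1.08, 0.588 and 0.617 CPM (2.59, SE 0.549, adjusted p = 0.0992), and Igkc, the kappa light chain, 44.7, 20.4 and 7.99 against 1.08, 0.647 and 0.898 CPM (4.78, adjusted p = 0.344). For Igkc and Jchain KO library 1 was the highest and KO library 3 the lowest of its label, unlike the neutrophil genes, and without KO library 3 the median was 3.04. In the day 3 libraries alone Cd79b (adjusted p = 0.0397) and Igkc (0.044) passed.

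Endothelial genes were higher in 17 of 17 tested members (median 2.32, and 1.68 without KO library 3). Of these 11 passed the unadjusted threshold, against 4.82% of all genes, and 14 did not overlap, against 15.9%. The 11 became 5 without KO library 3 and 6 without WT library 1. Pecam1, the adhesion protein CD31, measured 6.08, 8.75 and 20.3 against 1.24, 2.18 and 3.54 CPM (2.34, SE 0.633, adjusted p = 0.236). Cdh5, the cadherin of endothelial junctions, measured 8.99, 12.8 and 38.2 against 1.76, 1.53 and 5.27 CPM (2.81, SE 0.872, adjusted p = 0.295), and Sox18, a transcription factor of vessels, 1.97, 1.77 and 6.12 against 0.206, 0.176 and 0.505 CPM (3.44, adjusted p = 0.22). KO library 3 was again the highest, and KO libraries 1 and 2 also lay above the 3 WT libraries. T and NK cell genes (5 tested, median 1.18) had Lck past the threshold at 1.61, 1.22 and 1.59 against 0.774, 0.235 and 0.393 CPM. Erythroid and platelet genes (14, median 0.22) had 1, the platelet integrin Itga2b, at 3.63, 3.43 and 4.99 against 1.45, 1.65 and 1.85 CPM, and the erythroid marker Alas2 was at 0 in all 6 libraries. Dendritic cell genes (11, median 0.49) had 1, Cd209a, with 0 CPM in the 3 WT libraries and in KO library 2.

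**Figure D3:**
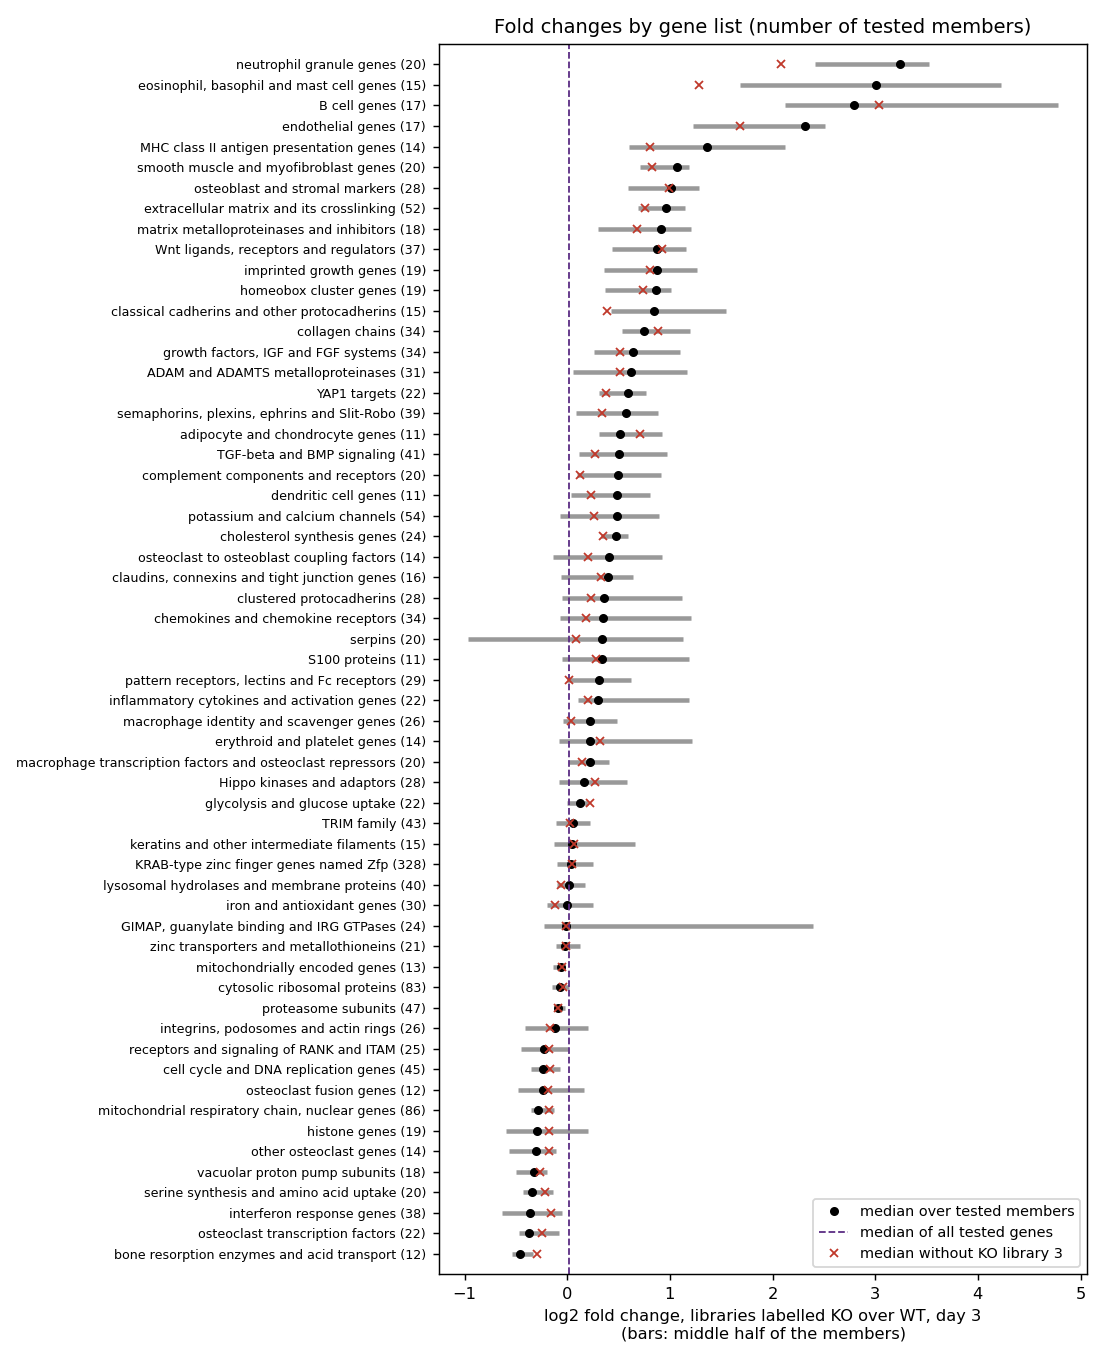
Median log2 fold change of the libraries labelled KO over WT (black points, x axis) for each list with at least 10 tested members (y axis, number of tested members in parentheses), with bars over the interquartile range of the members, red crosses for the median without KO library 3, and a dashed line at the median of all tested genes (0.02). Neutrophil genes lie highest at 3.24 (2.08 without KO library 3) and resorption genes lowest at -0.46.

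Bone and stromal genes formed the largest difference by level, since they carry many counts. Osteoblast and stromal markers (28 tested) had a median of 1.01, with 27 positive and 17 higher without overlap against 15.9% of all genes. Past the unadjusted threshold were 4, all higher (Runx2, Vcam1, Ibsp and Sp7), against 4.82% of all genes. Runx2, the transcription factor that commits cells to bone formation, measured 29.4, 31.4 and 26.1 against 14.5, 15.9 and 16.3 CPM (0.90, SE 0.297, adjusted p = 0.324). The 3 libraries of each label were close together and the labels apart. Vcam1, an adhesion protein of marrow stroma, measured 67.1, 58.9 and 72.5 against 33.7, 29.9 and 24.6 CPM (1.17, SE 0.458, adjusted p = 0.393). In the day 3 libraries alone both passed (adjusted p = 0.0356 for Runx2 and 0.0303 for Vcam1). Col1a1, the main chain of bone collagen, measured 8273, 11750 and 12060 against 5096, 6285 and 5106 CPM, without overlap but with a wide spread over the 18 libraries (0.96, SE 1.10, adjusted p = 0.782).

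Some bone genes followed another order among the libraries. Ibsp, bone sialoprotein, measured 253, 235 and 26.96 against 12.2, 25.6 and 44.9 CPM (2.64, SE 1.03, adjusted p = 0.392, and 3.15 without KO library 3). Sp7, the transcription factor osterix, measured 22.6, 19.9 and 7.65 against 3.25, 7.06 and 6.73 CPM (1.56, adjusted p = 0.447). Alpl, alkaline phosphatase, measured 127, 113 and 20.6 against 24.5, 38.2 and 75.1 CPM, and Fmod, fibromodulin, 112, 116 and 17.8 against 9.14, 16.6 and 23.9 CPM. In these 4 genes KO libraries 1 and 2 were high and KO library 3 was at or near the WT level, whereas for Col1a1 and Postn (258, 533 and 742 against 155, 191 and 132 CPM) KO library 3 was the highest. Alpl, Fmod, Postn, Bglap and Dmp1 were named after their values were seen. Bglap, the osteocalcin gene of mature osteoblasts, had 2 counts in KO library 1 and 0 in the other 5 libraries, and Dmp1, an osteocyte gene, measured 7.92, 6.36 and 1.13 against 2.32, 3.00 and 6.17 CPM. The plot of single genes by library shows both orders.

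**Figure D4:**
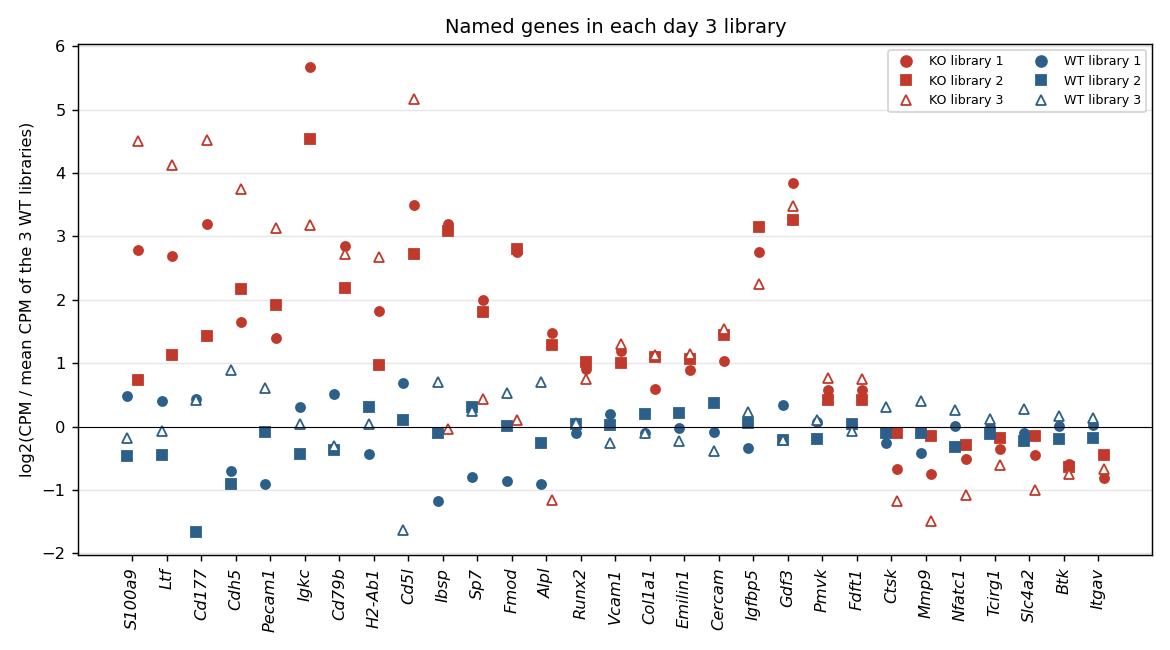
Level of each named gene in each day 3 library as log2 of its CPM over the mean CPM of the 3 WT libraries (y axis), red for KO and blue for WT, with the symbol giving the library number. KO library 3 (open triangle) is the highest for S100a9, Ltf, Cd177, Cdh5 and Pecam1 and the lowest of its label for Ibsp, Sp7, Fmod and Alpl, while the 3 KO libraries lie together for Runx2, Vcam1, Cercam and Btk.

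The matrix lists showed the same side. Collagen chains (34 tested) had a median of 0.74, with 29 positive, 17 higher and 2 lower without overlap (15.9% and 13.3% of all genes), and 3 past the unadjusted threshold (4.82% higher over all genes), Col8a2, Col11a2 and Col6a5. Col11a2 measured 8.76, 8.26 and 5.72 against 2.07, 3.12 and 2.64 CPM (1.54, SE 0.444, adjusted p = 0.253), and Col8a2 27.5, 32.9 and 5.67 against 2.07, 4.65 and 4.26 CPM (2.59, adjusted p = 0.247). The sum of all chains was 24200, 34100 and 34600 CPM against 13500, 17600 and 15200 CPM, with a ratio of means of 2.01. Extracellular matrix and crosslinking genes (52) had a median of 0.96 with 51 positive, 33 higher without overlap against 15.9% of all genes, and 8 past the unadjusted threshold against 4.82%. The 8 became 4 without WT library 1 and 5 without WT library 3. P4ha2, a prolyl hydroxylase that stabilises collagen, measured 58.5, 118 and 80.3 against 36.7, 39.1 and 47.4 CPM (1.06, SE 0.278, adjusted p = 0.22), and P4ha1 148, 215 and 188 against 109, 113 and 135 CPM (0.63, adjusted p = 0.389). Sparc, the matrix protein osteonectin, and Col8a1, both named after their values were seen, passed in the day 3 libraries alone (adjusted p = 0.0356 and 0.0152) with log2 fold changes of 1.48 and 1.55.

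Smooth muscle and myofibroblast genes (20) were positive in 20 of 20 (median 1.07, and 0.82 without KO library 3). Csrp1 and Csrp2, LIM proteins of the contractile apparatus, were higher past the unadjusted threshold, as 4.82% of all genes were. Csrp1 measured 321, 372 and 494 against 199, 280 and 198 CPM (0.81, adjusted p = 0.239). Adipocyte and chondrocyte genes (11, median 0.52) had 1, Comp, the cartilage oligomeric matrix protein, at 3.22, 2.69 and 2.32 against 0.619, 1.00 and 0.393 CPM (2.02, SE 0.477, adjusted p = 0.147), and the adipocyte markers Lep and Cidec were at 0 in all 6 libraries. Imprinted growth genes (19, median 0.87) had 1, Mest, at 11.97, 15.97 and 10.1 against 0.723, 1.53 and 4.71 CPM (2.45, adjusted p = 0.343). Homeobox cluster genes (19, median 0.86) had 0, with Hoxc10 at 21.4, 20 and 20.6 against 12.8, 12.9 and 12.5 CPM. Hoxc10 was nearly constant within each label, and it passed in the day 3 libraries alone (adjusted p = 0.0399).

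Signaling pathways that the study linked to Zmat1 were read next. Hippo kinases and adaptors (28 genes) had a median of 0.17 and 0 members past the unadjusted threshold. Of these genes 10 were higher and 1 lower without overlap, against 15.9% and 13.3% of all genes. The 6 genes of the Hippo effectors, YAP, TAZ and the TEAD factors, were all higher without overlap, against 15.9% (median 0.88), and 0 passed the threshold. Wwtr1, which encodes TAZ, measured 29.5, 35.2 and 42.9 against 16.7, 19.1 and 19.5 CPM (0.96, SE 0.727, adjusted p = 0.664, and 0.045 in the day 3 libraries alone). YAP1 targets (22, median 0.59, and 0.37 without KO library 3) had 1 past the threshold, Igfbp3, at 15.7, 18.5 and 37.2 against 1.19, 1.18 and 6.56 CPM (3.00, adjusted p = 0.37). The stromal marker sum was 17600, 25800 and 26000 CPM against 10000, 13000 and 10700 CPM in the same libraries, and its part in these values was not tested.

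Wnt ligands, receptors and regulators (37, median 0.88) had 35 positive, 19 higher without overlap against 15.9% of all genes, and 3 past the unadjusted threshold against 4.82%. Frzb, a secreted Wnt antagonist, measured 1.01, 1.35 and 0.736 CPM and was at the floor of 3 counts in the WT libraries, so that it was at least 6.19-fold higher (adjusted p = 0.135). Fzd7, a Wnt receptor, measured 39.9, 38.2 and 48.8 against 22.1, 32.3 and 20.4 CPM (0.76, adjusted p = 0.373), and Lgr5, a receptor of R-spondins, 5.004, 11.6 and 4.985 against 2.89, 3.06 and 1.57 CPM (1.52, adjusted p = 0.393). All 3 kept the labels apart, as Porcn did. TGF-beta and BMP genes (41, median 0.51, and 0.27 without KO library 3) had 3, of which Acvrl1, a receptor of endothelium, measured 24.9, 25.1 and 60.4 against 19.7, 20.6 and 9.76 CPM (1.14, and 0.58 without KO library 3). Growth factor, IGF and FGF genes (34, median 0.64) had 7, where 4.82% of all genes were higher, led by Igfbp5 and followed by Mdk and Ptn, the related heparin-binding factors midkine and pleiotrophin. Ptn measured 3.28, 4.65 and 2.83 against 0.361, 0.471 and 0.954 CPM (2.58, adjusted p = 0.31) and Mdk 6.14, 7.16 and 4.02 against 1.81, 2.76 and 2.64 CPM (1.26, adjusted p = 0.31). Semaphorin, plexin, ephrin and Slit-Robo genes (39, median 0.57) had 3, Sema4c, Sema6d and Efna1.

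Among metabolic lists, cholesterol synthesis was the one with a single sign. All 24 tested genes had a positive log2 fold change, the median was 0.48 with an interquartile range from 0.33 to 0.59, 19 were higher without overlap against 15.9% of all genes, and 5 passed the unadjusted threshold against 4.82%. The 5 became 2 without KO library 3 and 2 without WT library 3. Pmvk, the phosphomevalonate kinase, measured 45.6, 40.6 and 52.0 against 32.1, 26.5 and 32.8 CPM (0.60, SE 0.148, adjusted p = 0.189). Fdft1, squalene synthase, measured 66.2, 59.0 and 74.1 against 45.0, 45.7 and 42.0 CPM (0.59, SE 0.158, adjusted p = 0.235), and Dhcr7, the last reductase of the pathway, 65.9, 51.3 and 85.4 against 49.0, 41.9 and 41.5 CPM (0.61, adjusted p = 0.303). KO library 2 was the lowest and KO library 3 the highest of the label in Pmvk, Fdft1 and Dhcr7. Without KO library 3 the median of the list was 0.35.

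Glycolysis and glucose uptake genes (22, median 0.13) had 3 higher past the unadjusted threshold, Slc16a3, Pfkl and Slc2a3, against 4.82% of all genes. Slc16a3, the lactate exporter, measured 122.6, 225 and 141 against 67.6, 51.3 and 122.9 CPM (1.01, adjusted p = 0.307), with WT library 3 level with KO library 1. Serine synthesis and amino acid uptake genes (20, median -0.34) had 0. Iron and antioxidant genes (30, median 0.00) had Steap4, a metalloreductase, lower (43.9, 57.2 and 20.5 against 56.3, 82.8 and 115 CPM) and Sod3, the extracellular superoxide dismutase, higher (57.8, 98.4 and 39.1 against 19.6, 16.9 and 21.8 CPM). Lysosomal genes (40, median 0.01) and cell cycle genes (45, median -0.24) had 0. Mki67, the proliferation antigen Ki-67, measured 184, 138 and 135 against 233, 161 and 280 CPM (-0.56, adjusted p = 0.726).

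Among large housekeeping families, nuclear genes of the mitochondrial respiratory chain (86 tested) had a median of -0.28, with 80 negative, 34 lower without overlap against 13.3% of all genes, and 1 past the unadjusted threshold (Cox7c, at 3.28, 4.16 and 1.19 against 6.76, 6.23 and 5.78 CPM). Their sum was 9660, 10500 and 8030 CPM against 11600, 10600 and 12500 CPM, and the KO sums stayed below the WT sums. The 13 mitochondrially encoded genes had a median of -0.06, cytosolic ribosomal proteins (83) one of -0.07 with Rps4l higher, and proteasome subunits (47) one of -0.09 with 0 past the threshold. Rps4l, a copy of a ribosomal protein gene, measured 39.6, 41.8 and 44.4 against 21.2, 25.3 and 19.2 CPM (0.94, adjusted p = 0.365, and 0.0356 in the day 3 libraries alone). Histone genes (19) had a median of -0.30 (-0.06 without WT library 3, and 0.11 among those of at least 5 CPM in at least 3 libraries), zinc transporters and metallothioneins (21) one of -0.02 and the Zmat family (4 tested) one of 0.07, all with 0 past the threshold. Zinc finger genes named Zfp (328, median 0.04) had 8 higher and 0 lower, a smaller share than the 4.82% of all genes.

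The TRIM family, to which Trim46 belongs, had a median of 0.06 over 43 tested genes. Its 1 member past the unadjusted threshold was Trim16, lower, at 9.29, 10.1 and 13.9 against 19.1, 17.8 and 15.3 CPM (-0.64, adjusted p = 0.404). Tropomyosins (5) had Tpm3 and Tpm3-rs7. Clustered protocadherins (28, median 0.36) had 4 higher and 3 lower members past the threshold, against 4.82% and 0.864% of all genes. Their loci share exons, so their read assignment is uncertain. Pcdhga2 measured 65.2 CPM in KO library 1 and 0.673 to 3.29 CPM in the other 5 libraries. Classical cadherins and other protocadherins (15, median 0.84, and 0.39 without KO library 3) had 2, Cdh5 and Pcdh12, both genes of endothelium. S100 proteins (11, median 0.33) had 2, S100a8 and S100a9. Claudins, connexins and tight junction genes (16, median 0.40) had Cldn5, of endothelial junctions, higher and Cgn, cingulin, lower.

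Of all genes, 4.82% passed the unadjusted threshold on the higher side and 0.864% on the lower, beside which the next counts stand. Matrix metalloproteinases and their inhibitors (18, median 0.92) had 4 higher, Mmp8, Mmp11, Mmp13 and Mmp27. Mmp13, the collagenase of osteoblasts and cartilage, measured 109, 177 and 24.1 against 21.2, 18.1 and 55.7 CPM (1.71, adjusted p = 0.422), the order seen for Ibsp. ADAM and ADAMTS genes (31, median 0.63) had 5 higher and 1 lower. Adamtsl4, a protein of fibrillin microfibrils, measured 35.4, 43.3 and 38.0 against 18.8, 23.9 and 22.2 CPM (0.85, SE 0.234, adjusted p = 0.247). Serpins (20, median 0.33, and 0.09 without KO library 3) had 4 higher and 2 lower. Serpinb8 was a lower one, at 19.1, 41.2 and 19.4 against 57.7, 51.7 and 76.9 CPM (-1.22, adjusted p = 0.31). Potassium and calcium channels (54, median 0.48, and 0.26 without KO library 3) had 6 higher. Kcne3, a regulatory subunit, measured 1.61, 2.57 and 4.76 against 0.155, 0.294 and 0.505 CPM (3.20, SE 0.681, adjusted p = 0.0999). Keratins and other intermediate filaments (15, median 0.05) had 2 higher. GIMAP, guanylate binding and IRG GTPases (24, median -0.02) had 6 higher and 1 lower, with Tgtp1 and Tgtp2 on either side, and Gimap1 and Gimap8 at the floor in the WT libraries, at least 4.65-fold and 3.74-fold higher.

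Of the 20 called genes, 8 lay on a pair of stretches chosen with earlier results of these data known, which hold 124 and 105 tested genes. Chromosome 3 from 86786151 to 94786492 held 5830417I10Rik, Tpm3 and Cgn, with 13 higher and 5 lower genes past the unadjusted threshold, where 4.82% of all genes were higher and 0.864% lower. Chromosome 11 from 44518964 to 57801417 held 9930111J21Rik2, Olfr56, Slc22a4, Gm12220 and Galnt10, with 16 higher and 5 lower. Ublcp1 starts at 44454571 on chromosome 11, just outside. The locus of Olfr56 overlaps 9 other genes, 1 of them on its strand, and 9930111J21Rik2, Tgtp1 and Tgtp2 are among the 9. How reads were shared between these loci was not tested. The median log2 fold change over the genes of either stretch was 0.08 and 0.07, where that of all genes was 0.02. Lyrm7, Tgtp1 and Celf3, which passed in the day 3 libraries alone, lie on the stretches too. Other genes named above lie there too, for example Tgtp2 and Sparc on the chromosome 11 stretch and Trim46 and S100a9 on the chromosome 3 stretch. These are examples, and further named genes, including leading members of other lists, may lie on the stretches.

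Whether a list differed only with RANKL was read from the same contrast on days 0 and 1, which use other libraries. On these days 3.95% (2.89% higher) and 4.7% (3.34% higher) of the genes passed the unadjusted threshold. The WT day 1 group holds libraries titled 1WT-1d and 1WT--d1, both numbered 1, and none numbered 3. Library titles of days 0 and 1 mix single and double hyphens, and those of day 3 do not. These libraries also enter the spread of the main fit, and the part of this in the values was not tested. Neutrophil genes had medians of 1.79 on day 0 and 1.20 on day 1 before the 3.24 of day 3, and endothelial genes 0.78, 1.97 and 2.32. Stromal markers had 0.61, 1.20 and 1.01. B cell genes had 0.63, 0.67 and 2.79 (fitted values, with many members near 0 counts, and 1.63 on day 3 with such members at their bound). These groups thus had positive medians before RANKL as well. Cholesterol synthesis genes had -0.05 on day 0, 0.22 on day 1 and 0.48 on day 3, resorption genes 0.14, 0.02 and -0.46, and proton pump subunits 0.02, -0.11 and -0.32. The difference between days was tested for each gene. In edgeR 0 genes passed the adjusted p for day 3 against day 0 (769 at an unadjusted p under 0.05) and 0 for day 3 against day 1 (363 unadjusted), while the DESeq2 Wald test gave 4 and 1. Of the 24 cholesterol genes 8 had an unadjusted p under 0.05 for day 3 against day 0, where 769 of 14241 genes did. The same was seen for 10 of the 86 respiratory chain genes. The median difference between these days was 0.52 in the first list and -0.33 in the second. Other lists held such genes too, among them 3 of 12 resorption genes and 17 of 328 zinc finger genes named Zfp.

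**Figure D5:**
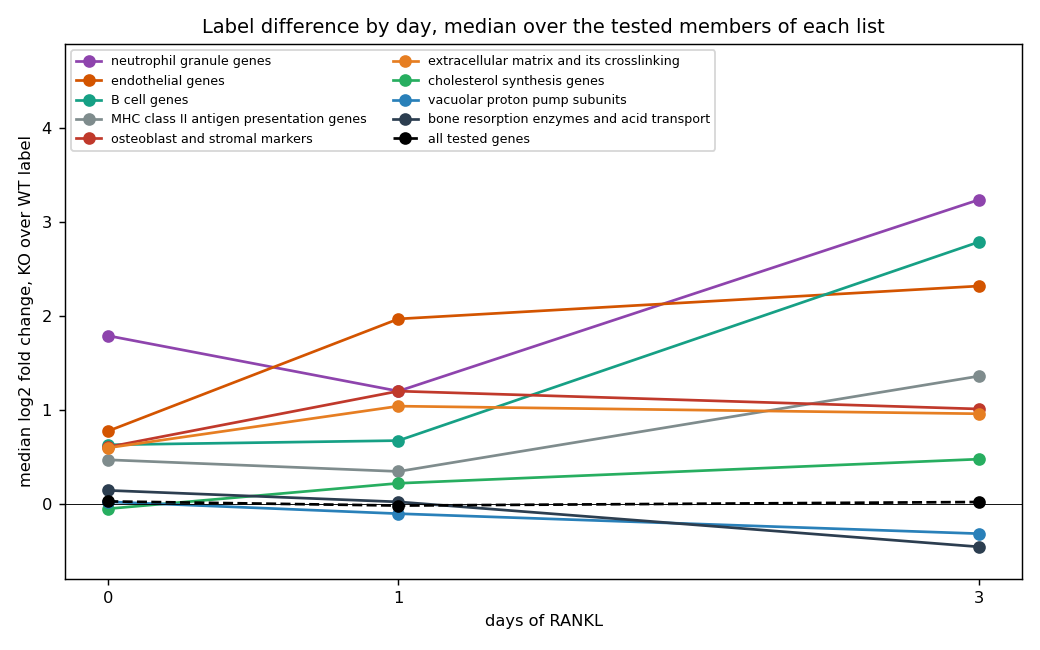
Median log2 fold change of the libraries labelled KO over WT (y axis) for 9 lists and for all tested genes (dashed) after 0, 1 and 3 days of RANKL (x axis). Neutrophil, endothelial, stromal and matrix medians are positive on each day, whereas cholesterol synthesis goes from -0.05 to 0.48 and the resorption list goes from 0.14 to -0.46.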

How the data were processed

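The authors deposited 1 table of 34745 genes, holding read counts and FPKM values (per kilobase of transcript and per depth) of the 18 libraries. Per the labels, total RNA went into SMARTer messenger RNA libraries, and per the labels and the methods of the study the deposited FPKM values come from StringTie and Ballgown. The deposited counts are whole numbers, and the counting program is not given in the sources used here. The main analysis used the counts (edgeR 4.0.16 under R 4.3.3). Low genes were removed with filterByExpr, libraries were scaled by TMM, and the 18 libraries were fitted as 6 groups with the quasi-likelihood test. The p-values are 2-sided and adjusted by Benjamini-Hochberg over 14241 genes. A floor is 3 counts in each library, and floors cover counting error only. The FPKM values entered only the alternative of limma 3.58.1 on log2(FPKM + 1). DESeq2 1.42.0 was another. Fits were tested on simulated data first. Promoters were read from RefSeq and coding sequences from GENCODE (both GRCm38). The replicate numbers were not taken as pairs (see the closing section).

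Members and 65 gene lists were chosen with earlier results of these data known. Named were Zmat1 and Trim46, called genes without overlap and with the largest fold changes (up to 10 a direction, at least 1 CPM), the 12 uncalled genes a direction with the smallest p past the unadjusted threshold (at least 5 CPM, no overlap), and up to 4 members of a list with the smallest p past that threshold, or else the 2 most abundant. Galnt10 and Fbxo10 were called below the largest 10 and were added to complete the 20, and other genes outside the rule were named after their values were seen. Some genes that the rule names are not reported here. Alternatives changed the scaling, the filter, the tool, the libraries fitted, the replicate block, or left out 1 library.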

Additional observations from a re-analysis of the deposited data

How the results depend on the processing

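Of the 145 genes followed over 14 alternatives, 0 changed sign. Of the 20 called genes 6 kept the call throughout and 14 lost it in at least 1, while 68 uncalled genes were called in at least 1. The medians of 10 of 65 lists changed sign in at least 1, among them histone genes (-0.30, up to 0.11) and macrophage identity genes (0.23, down to -0.02).

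The count at the adjusted p (20) was 235 with the DESeq2 Wald test (179 higher, 56 lower), 158 with the 6 day 3 libraries alone, where the spread is estimated from fewer groups and 13491 genes are tested, and 112 with limma on log2(FPKM + 1). It was 9 to 13 with 1 library left out, with 9 without KO library 1 and 9 without WT library 1. DESeq2 size factors, library totals, no filter and the filter of at least 5 CPM in at least 3 libraries gave 17, 20, 14 and 18. At the unadjusted threshold (810) it was 1504 with the day 3 libraries alone, 534 with the stricter filter, which tests 11480 genes, 508 with limma on log2(FPKM + 1), and 515 to 905 with 1 library left out, with 515 without KO library 3 and 538 without WT library 3. For the difference of day 3 from day 0 (0 genes) the DESeq2 Wald test gave 4 and limma 7, and from day 1 (0 genes) they gave 1 and 5. The cause of the differences between tools was not tested. The log2 fold change of Zmat1 ran from 0.17 (limma on FPKM) to 0.99.

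The replicate block gave 7 genes at the adjusted p. On day 3 the deviations of same-number libraries from the mean of their label had correlations of -0.02, -0.12 and -0.28 between the labels. Such deviations balance out within a label, so these values cannot exclude a pairing. The numbers were not taken as pairs because the labels give none. With 3 libraries a label and 14144116 to 16548944 counts, small differences and genes under about 1 CPM were near the limit of detection.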
